A study of Mus musculus with 6 samples.

Results

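The genes described here are the protein-coding genes of mouse chromosome 19 that start between 14000000 and 32400000 in mm10, a window of 18.4 Mb. They are 81 of the 55487 genes in the count table. A pair of further coding genes of the window were left out by the rule that set the list. The window was chosen by the levels measured in these libraries, which differed between cultures of 1 genotype. Levels by library are therefore given as a description, with no test.

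RNA was sequenced from primitive macrophages made from mouse embryonic stem cells. The stem cells were established from wild-type or from Ts1Cje mice, 3 libraries each. Ts1Cje is a model of Down syndrome with an extra copy of the distal part of chromosome 16, joined to chromosome 12. Both groups were differentiated for 12 days with M-CSF, IL-3, SCF, VEGF, activin A, BMP-4 and FGF2. The labels number the libraries as lots, and whether a lot is a line of its own or a repeat differentiation is not stated. P-values here thus measure the spread between these libraries, which may be technical. No strain or number of lines was named in the labels. In such bulk RNA, fewer cells of a type and less RNA per cell cannot be told apart.

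Chromosome 19 is the smallest mouse autosome. The window has no single function, as its genes are neighbours by position. It holds genes that macrophages use, such as Anxa1 (annexin A1, a lipid-binding protein that limits inflammation), Dock8 (an activator of the small GTPase Cdc42 needed for leukocyte movement) and Cd274 (PD-L1, a ligand that restrains T cells). Beside these are widely expressed genes of metabolism, chromatin and membrane traffic, and genes of other tissues such as Dmrt1 of the gonad and Rorb of neurons.

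Total counts were 25484294 to 32658148 per library, with 17586 to 18935 genes detected. All 12 macrophage markers checked were transcribed, with a summed level of 9224 to 20310 CPM (counts scaled to library size with TMM factors). Markers of other cells (pluripotent, erythroid, mast and megakaryocyte, neutrophil, endothelial, mesenchymal, epithelial, cardiomyocyte and neural) summed to at most 186 CPM per list and library. Of the 6 pluripotent markers, Sox2 and Esrrb were at 0 in every library. The 6 summed to 0 CPM in each wild-type library and to 0.53, 0.45 and 0.58 CPM in Ts1Cje replicates 1 to 3. Pou5f1 and Dppa5a had counts in every Ts1Cje library, at up to 0.48 CPM for Dppa5a in replicate 3. Wild-type replicate 1 stood apart on the first principal component at -88.2, against -18.7 to 38.7 for the other libraries, and it had the highest summed macrophage markers. Wild-type replicate 3 had the lowest macrophage marker sum, 9224 CPM in place of 20310 and 13480 in the other wild-type libraries; Ts1Cje replicates 1 to 3 had 10590, 13040 and 19760. Much of this order came from Lyz2 (lysozyme), at 2298 to 11560 CPM. The other 11 markers summed to 9933, 9006 and 6925 CPM in wild-type replicates 1 to 3 and to 7337, 6903 and 8192 CPM in the Ts1Cje libraries. Markers of cardiomyocytes summed to 72.9 CPM in wild-type replicate 1, against 1.10 to 14 in the other libraries, and epithelial ones to 19.7 against 0 to 7.37. Mesenchymal markers were highest in Ts1Cje replicate 2, at 74.9 CPM against 11 to 39.2. The part of these differences in the results was not tested.

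Of the 81 genes, 57 had at least 10 counts in at least 3 libraries and 24 did not. By the same rule, 381 of 635 coding genes on the rest of chromosome 19 passed, and 11357 of 21218 on other chromosomes. Over all genes, coding or not, 14035 of 55485 passed, with the left-out genes of the window set aside. Whether these shares differ was not tested. A gene can pass this rule through 1 genotype alone. Among the 24, 12 were at 0 in every library and 12 had counts in at least 1. The first 12 included Aldh1a1 and Aldh1a7 (aldehyde dehydrogenases) and Foxb2, Foxd4, Rorb, Dmrt1 and Dmrt3 (transcription factors). The rest of these 12 were Kcnv2 (a potassium channel subunit), Mbl2 (a secreted lectin), Trpd52l3, Gm815 and 1700028P14Rik. Those with counts were Gna14, Trpm6, Tmc1, Gda, Pip5k1b, Slc1a1, Rln1, Pdcd1lg2, Mlana, Il33, Dkk1 and A1cf, with up to 35 counts in 1 library for Trpm6, 18 for Pip5k1b and 16 for Slc1a1. A count of 0 allows up to 0.0919 to 0.118 CPM in these libraries, by a floor of 3 counts that covers counting error only. Close to the rule, the third highest count was 10 for Pcsk5 (a proprotein convertase), 10 for Trpm3 (a cation channel) and 14 for Pgm5 (a phosphoglucomutase relative of adhesion sites). Just below it were Tmc1 (a mechanotransduction channel) at 7, Trpm6 (a magnesium channel) at 5 and Gda (guanine deaminase) at 4.

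The 4 below are shown because they span the range, from widely expressed genes to an immune ligand; each is the 120 bases before the RefSeq start, from the RefSeq promoter table in GRCm38.p6, 5′ to 3′ on the strand of the gene. Capitals mark matches to the letters CCAAT and GGGCGG (the GC box), which were searched on both strands together with TATAAA and GAGGAA (the core of sites for the macrophage factor PU.1).
Ostf1 (chr19:18631814-18631933, - strand): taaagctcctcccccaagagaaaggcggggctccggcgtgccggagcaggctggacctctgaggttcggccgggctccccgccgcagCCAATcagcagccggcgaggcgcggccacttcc
Dock8 (chr19:24999409-24999528, + strand): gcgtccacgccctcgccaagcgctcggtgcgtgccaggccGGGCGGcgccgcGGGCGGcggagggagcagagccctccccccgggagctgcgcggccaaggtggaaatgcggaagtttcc
Uhrf2 (chr19:30030393-30030512, + strand): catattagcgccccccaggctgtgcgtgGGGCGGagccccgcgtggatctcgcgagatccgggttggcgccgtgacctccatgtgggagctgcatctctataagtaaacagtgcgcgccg
Cd274 (chr19:29367318-29367437, + strand): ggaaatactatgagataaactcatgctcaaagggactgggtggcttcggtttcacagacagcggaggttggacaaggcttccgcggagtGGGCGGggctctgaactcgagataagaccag
In the 250 bases before the start, Dock8 had 43 CG pairs, Uhrf2 23, Ostf1 19 and Cd274 11. A promoter was found for 50 of the 57 genes above the rule and for 20 of the 24 below it, with a median of 19.5 and 5 CG pairs, against 6 over all 32851 promoters of the table. GGGCGG was present in 62% of the 50, in 20% of the 20 and in 32.7% of all promoters. TATAAA was in 4%, 20% and 12.4%, CCAAT in 42%, 50% and 33.8% and GAGGAA in 20%, 30% and 23.3%, in the same order. These matches describe the letters only. The promoters of the table were not selected by expression, and those of other expressed genes were not compared. No trait of the window is therefore read from them.

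The 57 genes were highest in wild-type replicate 3 and Ts1Cje replicate 2 and lowest in Ts1Cje replicate 1 and wild-type replicate 1. For each gene the log2 CPM of a library was taken relative to the mean of the 6 libraries. Replicates 1 to 3 had medians of -0.098, 0.025 and 0.29 in wild-type, against -0.23, 0.15 and -0.016 in Ts1Cje. The range between library medians was thus about as wide within wild-type (0.39) as within Ts1Cje (0.38). The genotypes overlapped, with means of library medians of 0.072 and -0.034. Over all 14035 genes that passed the same rule, the library medians ranged by 0.014. The TMM scaling levels the bulk of genes between libraries, so this small range is largely set by it. The shares of all genes given below for pairs of libraries are likewise held near even by the scaling.

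**Figure D1:**
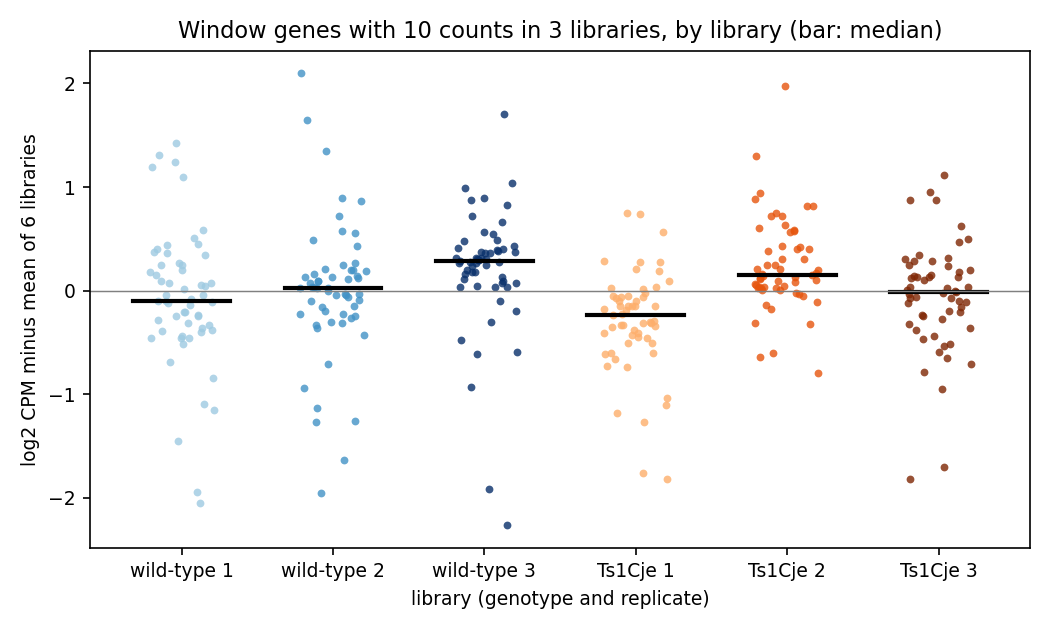
Each point is 1 of the 57 window genes above the count rule, the vertical axis its log2 CPM minus its mean over 6 libraries, and the bar the library median. The bars of wild-type replicate 3 (0.29) and Ts1Cje replicate 2 (0.15) are the highest, while single genes spread widely, down to -2.27 in wild-type replicate 3.

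Wild-type replicate 3 was above replicate 1 for 38 of 57 genes (49.3% of all genes) and above replicate 2 for 44 of 57 (49.5% of all genes). Ts1Cje replicate 2 was above replicate 1 for 46 of 57 genes (49.4%) and above replicate 3 for 44 of 57 (50.8%). Both libraries were the highest of their genotype for 22 of 57 genes, where 10.3% of all genes had this order. The window was chosen on these libraries, so nothing is read from such counts. As folds, the median gene was 1.27 times higher in wild-type replicate 3 than in replicate 1, and 1.36 times higher in Ts1Cje replicate 2 than in replicate 1. Wild-type replicate 2 was above replicate 1 for 33 of 57 genes (49.6%), and Ts1Cje replicate 3 above replicate 1 for 38 (49.7%).

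Set against the mean of the 6 libraries, 48 of 57 genes were higher in wild-type replicate 3 (51% of all genes) and 46 in Ts1Cje replicate 2 (53.2%). In Ts1Cje replicate 1 only 12 of the 57 were above that mean (52.6% of all genes). The other libraries lay between, with 25 genes in wild-type replicate 1 (51.3%), 30 in wild-type replicate 2 (52.6%) and 27 in Ts1Cje replicate 3 (52.4%). Wild-type replicate 3 was the highest of all 6 libraries for 22 genes (13.8%), Ts1Cje replicate 2 for 12 (12.4%) and wild-type replicate 1 for 10 (26.3%). Wild-type replicate 2 led for 6 (16.2%), Ts1Cje replicate 3 for 5 (15.4%) and Ts1Cje replicate 1 for 2 (15.9%).

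On the rest of chromosome 19, wild-type replicate 3 and Ts1Cje replicate 2 again had the highest library medians. For 205 expressed coding genes before the window replicates 1 to 3 had -0.10, -0.030 and 0.29 in wild-type, against -0.23, 0.15 and -0.018 in Ts1Cje. For 176 genes beyond it they were -0.20, -0.037, 0.25, -0.11, 0.15 and 0.016 in the same order, so that wild-type replicate 1, not Ts1Cje replicate 1, was the lowest there. Wild-type replicate 3 was above replicate 1 for 288 of 381 of these outer genes, which is 75.6% of them, against 49.3% of all genes. Ts1Cje replicate 2 was above replicate 1 for 306, which is 80.3% of them, against 49.4% of all genes. Whether the window differs from the rest of the chromosome was not tested. Wild-type replicate 3 stayed above 0 in each of 15 bins of 4 Mb, from 0.17 to 0.47. Ts1Cje replicate 2 was above 0 in 14 of them, the exception being -0.015 in the bin from 56 to 60 Mb.

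**Figure D2:**
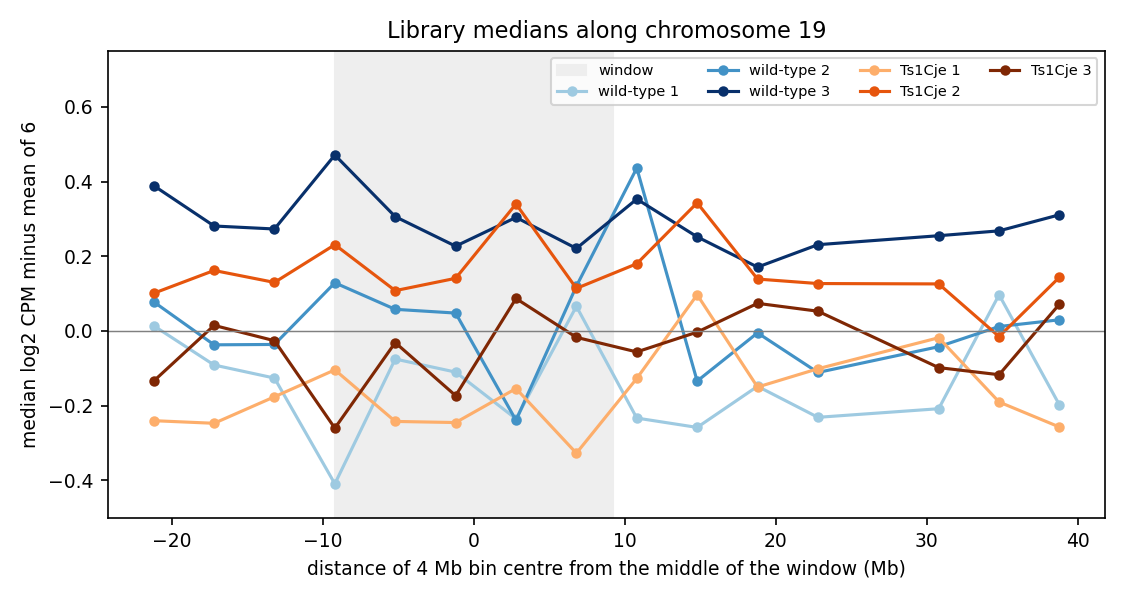
Median log2 CPM minus the 6-library mean (vertical axis) of expressed coding genes in 4 Mb bins, by distance in Mb from the middle of the window (horizontal axis), 1 line per library; the window is shaded. The line of wild-type replicate 3 lies between 0.17 and 0.47 along the whole chromosome, inside and outside the shaded window.

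No other chromosome from 1 to 18 or X had library medians so far apart. On chromosome 19 the highest and lowest library medians of coding genes differed by 0.45. The next was chromosome 16, which holds the extra segment, at 0.18, and the others ranged from 0.030 to 0.12. As a segment of known extra copy, 50 expressed coding genes of chromosome 16 from beyond Sod1 to Zbtb21 had library medians of -0.28, -0.39 and -0.29 in wild-type, against 0.41, 0.30 and 0.30 in Ts1Cje. There the genotypes stood 0.65 apart and libraries of 1 genotype differed by at most 0.11. In the window, libraries differed by 0.39 within wild-type and 0.38 within Ts1Cje, while the mean of Ts1Cje minus that of wild-type was -0.11.

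**Figure D3:**
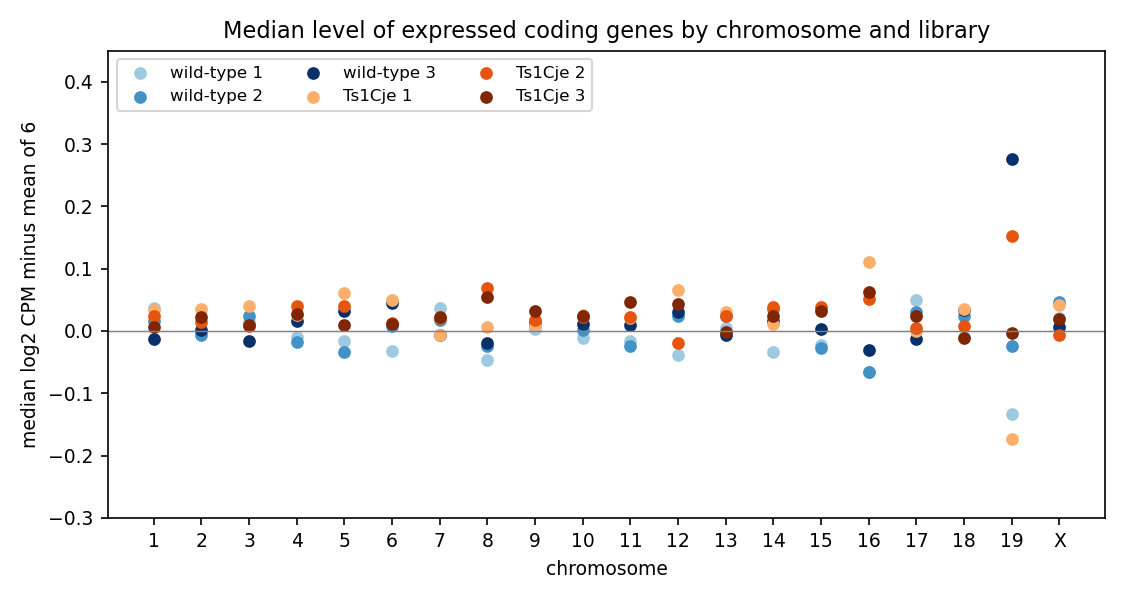
Median log2 CPM minus the 6-library mean (vertical axis) of expressed coding genes for each chromosome (horizontal axis), 1 point per library. On chromosome 19 the points spread over 0.45, with wild-type replicate 3 and Ts1Cje replicate 2 on top, while chromosome 16 separates by genotype.

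Non-coding genes of the window did not share the order of the coding ones. The 14 with enough counts had medians of 0.54, 0.33 and -0.0080 in wild-type, against -0.33, -0.18 and -0.22 in Ts1Cje. Wild-type replicate 1 was the highest library for these, and also for 45 non-coding genes on the rest of chromosome 19 (0.52) and for 2181 on other chromosomes (0.24). 

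At the ends of the window, the first genes inside were Tle4 (a Groucho corepressor) and Cep78 (a centrosomal protein), and the last were Asah2 (neutral ceramidase) and Sgms1 (sphingomyelin synthase). Relative to the 6-library mean, wild-type replicate 3 was at 0.38 for Tle4, 0.29 for Cep78, -0.59 for Asah2 and 0.66 for Sgms1. The nearest expressed genes outside were Zfp91 and Lpxn before it, at 0.55 and 0.56, and Rpl9-ps6 and Minpp1 beyond it, at 0.13 and 0.52 in the same library. Ts1Cje replicate 2 was at 0.21 for Tle4, -0.14 for Cep78, 0.13 for Asah2 and 0.055 for Sgms1. Outside, it was at 0.39 for Zfp91, -0.003 for Lpxn, -0.215 for Rpl9-ps6 and 0.27 for Minpp1. Signs were thus mixed near the bounds, and whether levels change at a bound was not tested.

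Immune and phagocyte genes were mixed. Of 7 listed, 4 passed the count rule: Anxa1, Dock8, Gcnt1 and Cd274. Anxa1 (chr19:20373428-20390944, minus strand) had the highest level in the window, with a mean of 898 TPM (scaled by gene length). Its levels were 515, 619 and 1105 CPM in wild-type replicates 1 to 3 and 1230, 927 and 822 CPM in Ts1Cje replicates 1 to 3. The means were 746 ± 315 and 993 ± 212 CPM (SD, n = 3), and the groups overlapped because wild-type replicate 3 lay among the Ts1Cje libraries. Ts1Cje replicate 1, the lowest library for the window as a whole, was the highest for Anxa1.

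Dock8 (chr19:24999534-25202432, plus strand) kept a narrow range of 1.42-fold. It had 249, 196 and 240 CPM in wild-type and 202, 277 and 195 CPM in Ts1Cje replicates 1 to 3, with replicate 2 the highest in Ts1Cje. Gcnt1, an enzyme that branches O-linked glycans, had 57.5, 58.6 and 88.3 CPM in wild-type and 83.3, 78.8 and 52.5 in Ts1Cje.

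Cd274 (chr19:29367455-29388095, plus strand) followed a different order. It had 74.2, 121 and 42.2 CPM in wild-type and 40.8, 106.5 and 44.8 CPM in Ts1Cje replicates 1 to 3. Replicate 2 was the highest of each genotype, with 121 against 42.2 and 106.5 against 44.8 CPM in replicate 3, and wild-type replicate 3 lay in the low group. Group means were 79 ± 39.5 and 64.1 ± 36.9 CPM (SD, n = 3), a difference well inside the spread. Its neighbour Pdcd1lg2, the related ligand PD-L2, was detected with 4 counts in each of Ts1Cje replicates 1 and 2, 2 in wild-type replicate 3 and 0 elsewhere. Il33, an alarm cytokine, had 6 counts in Ts1Cje replicate 1 and 0 elsewhere; Mlana, a melanocyte antigen, had at most 3.

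Signalling genes had their highest library median in Ts1Cje replicate 2, which was above replicate 1 for all 7 that passed. The same order held for 46 of the 57 window genes and for 49.4% of all genes, so it is not particular to this role. The list had 11 genes, and the medians of the 7 were -0.36, -0.092 and 0.20 in wild-type, against -0.060, 0.75 and 0.35 in Ts1Cje. Gnaq, the alpha subunit of Gq proteins that activates phospholipase C, had 178, 155 and 238 CPM in wild-type and 184, 227 and 177 CPM in Ts1Cje replicates 1 to 3. Both libraries that were high for the window were the highest for Gnaq, and the group means of 190 ± 43 and 196 ± 27.1 CPM (SD, n = 3) nearly coincided. Its paralogue Gna14, next to it on the chromosome, had 2 counts in 1 library.

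Abhd17b, which removes palmitate from proteins, ranged 4.54-fold. It had 8.54, 23 and 39 CPM in wild-type and 25.1, 35.1 and 25.4 CPM in Ts1Cje, with wild-type replicate 1 the low library. Prkg1, the kinase activated by cyclic GMP, had 9.67, 5.61 and 16.8 CPM in wild-type and 9.73, 23.9 and 17.3 in Ts1Cje. Vldlr, a receptor for lipoproteins and reelin, had 2.51, 8.19 and 2.25 CPM in wild-type and 0.888, 5.92 and 4.06 in Ts1Cje, with replicate 2 highest in each genotype as for Cd274. Apba1, an adaptor of vesicle traffic, had 4.82, 6.21 and 5.34 CPM and 4.32, 9.98 and 12.2 CPM. Kank1, an adaptor between adhesions and microtubules, was low, with 0.445, 0.0748 and 0.225 CPM in wild-type and 0.473, 2.16 and 1.16 CPM in Ts1Cje.

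Genes of transcription, chromatin and chromosome upkeep had wild-type replicate 3 on top and replicate 1 lowest. Of 16 listed, 11 passed the count rule, and their library medians were -0.39, 0.030 and 0.29 in wild-type, against -0.22, 0.026 and -0.073 in Ts1Cje. Wild-type replicate 3 was above replicate 1 for 9 of the 11 (49.3% of all genes) and Ts1Cje replicate 2 above replicate 1 for 9 (49.4%). These orders held for 38 and 46 of the 57 window genes, so they are not particular to this role. Uhrf2, which binds modified cytosines in DNA, had 138, 208 and 216 CPM in wild-type and 176, 186 and 182 in Ts1Cje. Tle4 had 18.1, 27.1 and 32 CPM and 21.6, 28.4 and 22.9 CPM, and Smarca2, an ATPase of the SWI/SNF chromatin remodellers, 20.8, 29.2 and 34 CPM and 23, 34 and 34 CPM, in the same order. In each of these, wild-type replicate 1 was the lowest library.

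Smc5, of the SMC5/6 complex that guards replicating chromosomes, had 63.8, 66.9 and 90.4 CPM in wild-type and 69.9, 74.4 and 50.4 CPM in Ts1Cje. Cstf2t, a factor of mRNA 3′ end formation, varied little, at 92.3, 85 and 83.6 CPM and 62.8, 76.1 and 69.3 CPM. Klf9, a transcription factor induced by glucocorticoids, did not follow this order, with 4.21, 23.9 and 4.81 CPM in wild-type and 4.44, 3.61 and 3.65 CPM in Ts1Cje. Its high level was in wild-type replicate 2 alone. Rfx3, a regulator of cilia genes, was highest in wild-type replicate 1, at 9.06 CPM against 2.52 to 5.15 in the others, and Dmrt2 was lowest there, at 0.243 CPM against 1.2 to 2.32.

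Metabolic genes also had wild-type replicate 3 on top. Of 15 listed, 11 passed the count rule, with library medians of -0.047, -0.063 and 0.37 in wild-type, against -0.29, 0.13 and 0.0090 in Ts1Cje. Ak3, an adenylate kinase of the mitochondrial matrix, had 102, 137 and 177 CPM in wild-type and 104, 140.5 and 117 CPM in Ts1Cje, with the same pair of libraries on top as for the window. Rfk, the kinase that turns riboflavin into FMN, had 109, 108 and 145 CPM and 101, 104 and 113 CPM.

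Sgms1 had 72.1, 65.05 and 89.6 CPM in wild-type and 37.3, 58.9 and 36.1 CPM in Ts1Cje. Within each genotype it was highest in the library that was high for the window, and every wild-type library lay above every Ts1Cje library. Asah2 had 10, 7.89 and 5.11 CPM in wild-type and 7.43, 8.49 and 8.49 CPM in Ts1Cje, and so was lowest in wild-type replicate 3. Gldc, the glycine decarboxylase, was at 0.337 to 1.45 CPM and Pgm5 at 0.178 to 1.34 CPM in single libraries.

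All 13 genes of membrane traffic, junctions and protein turnover passed the count rule. Their library medians were 0.069, 0.091 and 0.28 in wild-type, against -0.41, 0.094 and -0.21 in Ts1Cje. Ts1Cje replicate 2 was above replicate 1 for 12 of 13 (49.4% of all genes). It was so for 46 of the 57 window genes too, and the order is not particular to this role. Ostf1, an adaptor with an SH3 domain, was second in the window at 385 TPM; it had 566, 694 and 790 CPM in wild-type and 519, 639 and 747 CPM in Ts1Cje. Zfand5, a ubiquitin-binding activator of the proteasome, had 399, 405 and 429 CPM and 289, 411 and 394 CPM. Vps13a, a lipid transfer protein between organelles, had 20.2, 20.5 and 23.6 CPM and 13.4, 28.4 and 13.4 CPM, with Ts1Cje replicate 2 the highest and both other Ts1Cje libraries below wild-type.

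Ric1, which activates the Golgi GTPase Rab6, had 16.7, 17.7 and 20.8 CPM in wild-type and 14.3, 30 and 22.3 CPM in Ts1Cje. Mamdc2, a secreted proteoglycan, had the widest range among window genes with a mean log2 CPM above 1, 10.6-fold, with 21, 28 and 50.2 CPM in wild-type and 6.3, 14.8 and 4.67 CPM in Ts1Cje. Prune2 had the narrowest of these, from 21.1 to 23.7 CPM. Of 5 channels and transporters 1 passed the count rule, Trpm3, at 0 to 0.566 CPM. Of the 14 window genes outside these roles, Plgrkt, a plasminogen receptor, was the most abundant by counts, with 170 ± 23.3 CPM in wild-type and 125 ± 32.8 CPM in Ts1Cje (SD, n = 3), and D030056L22Rik was among those of narrow range, at 11.2 to 16.8 CPM.

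**Figure D4:**
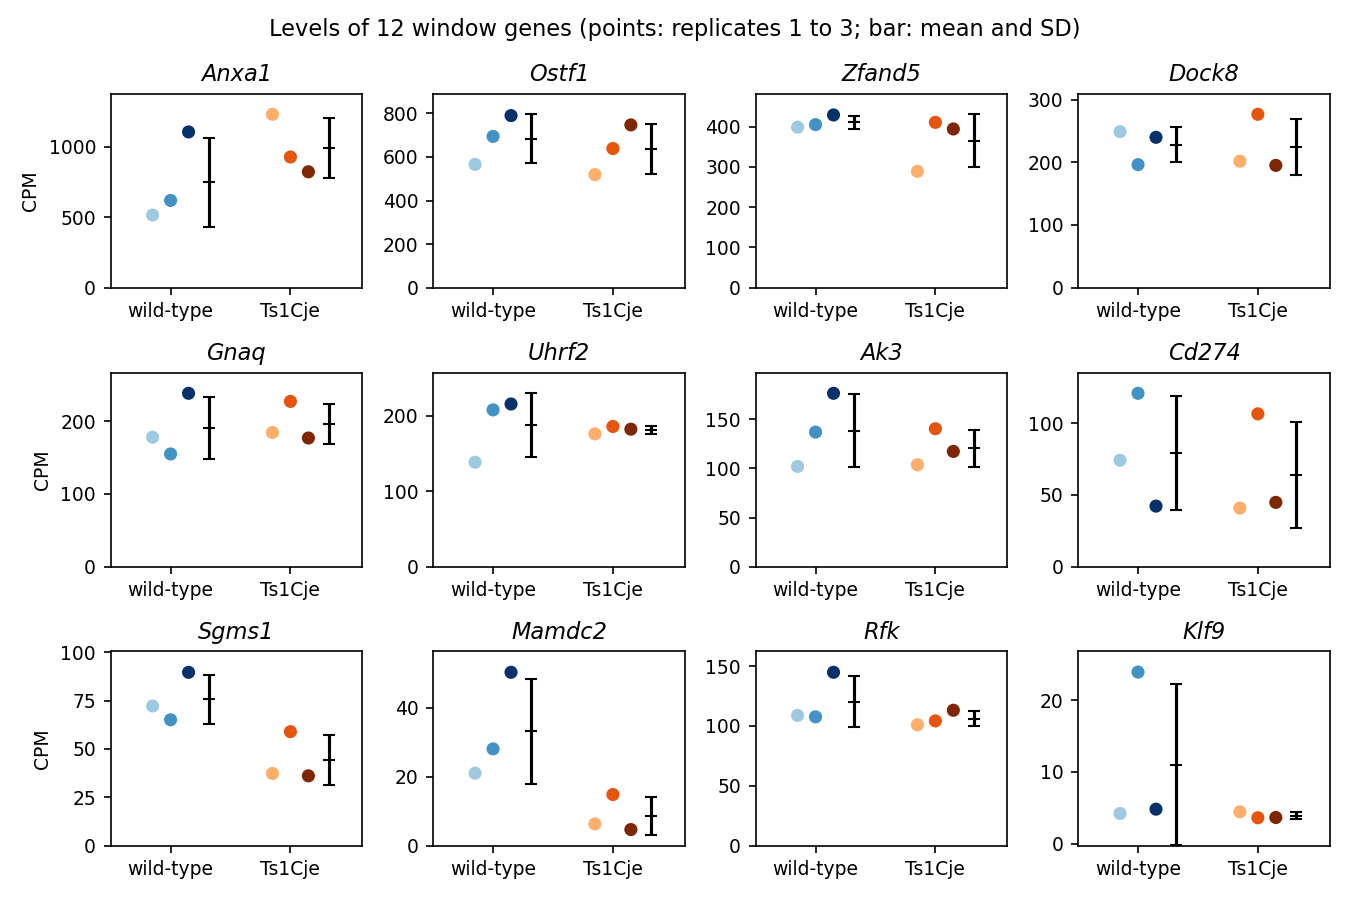
CPM (vertical axis, linear) of 12 window genes in wild-type and Ts1Cje libraries; points are replicates 1 to 3 from left to right, and bars are the mean and SD of 3. Ak3 and Gnaq have wild-type replicate 3 and Ts1Cje replicate 2 on top, while Cd274 and Klf9 peak in wild-type replicate 2 and Mamdc2 and Sgms1 do not overlap between genotypes.

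Single genes also varied beyond the library medians. After the library median was subtracted, 26 of 57 genes stayed within 0.5 log2 units in all 6 libraries and 41 within 1. The share over all genes is not given for these counts, so nothing is read from them. Without that subtraction, 31 of 57 ranged more than 2-fold between libraries, where 47.9% of all genes did. That is near the share over all genes and is not a trait of the window.

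**Figure D5:**
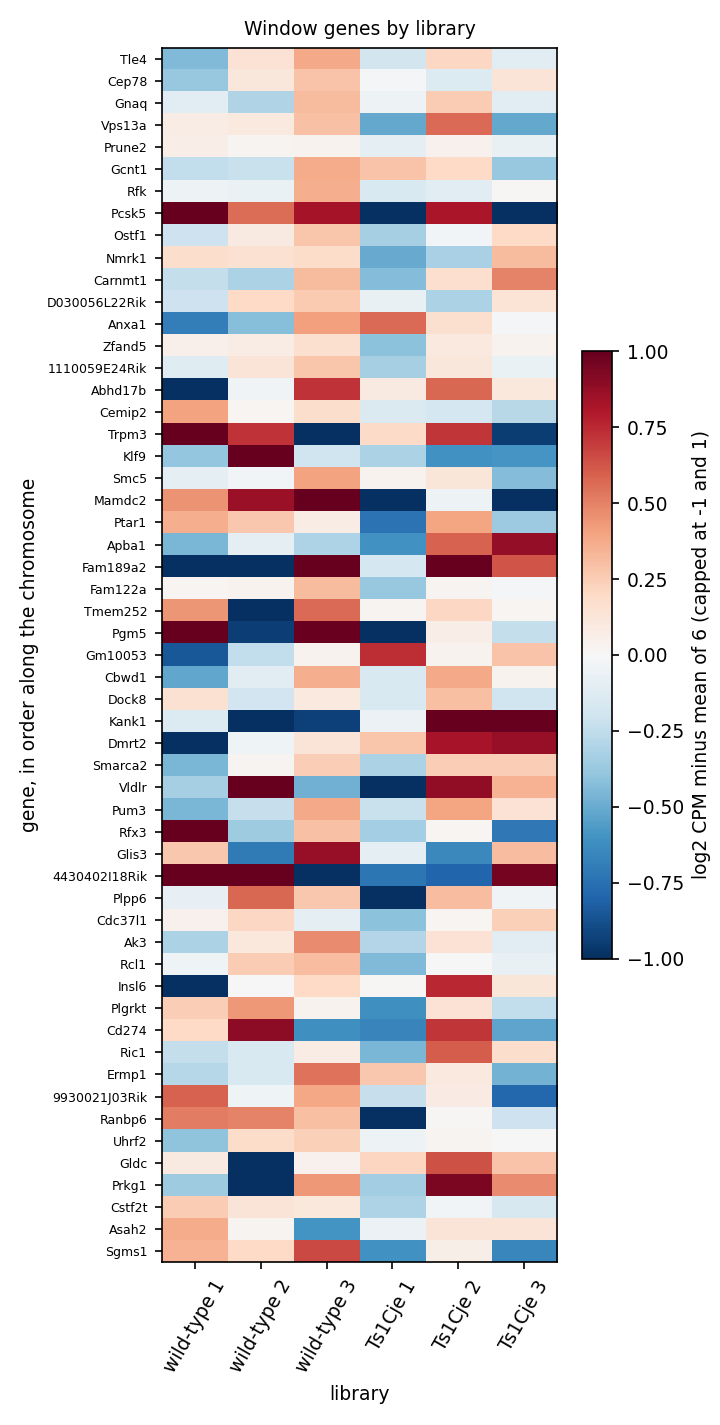
Log2 CPM minus the 6-library mean for genes above the count rule (rows, in order along the chromosome; most of the 57 are drawn) in 6 libraries (columns), capped at -1 and 1. The columns of wild-type replicate 3 and Ts1Cje replicate 2 are mostly red (of all 57 genes, 48 and 46 were above 0) and that of Ts1Cje replicate 1 mostly blue (12 were above 0).

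Between the genotypes no gene of the window passed the test with edgeR. EdgeR tested 56 of the 81, and 0 were called higher (0.00724% of all genes tested were) or lower (0% were) at an adjusted p under 0.05. DESeq2 called 1, Mamdc2 (0.406% of all genes tested), and limma-voom 0 (0.00724%). At an unadjusted p under 0.05 there was 1 gene higher, Kank1 (2.99% of all genes), and 5 lower in Ts1Cje (2.8% of all genes), and the smallest adjusted p was 0.792 by edgeR's quasi-likelihood test with Benjamini-Hochberg adjustment. Those 5 were Mamdc2, Sgms1, Ranbp6, Cemip2 and Cstf2t, of which Cemip2 was chosen after its values were seen. The same 5 had every Ts1Cje library below every wild-type library, which held for 5.72% of all genes. For 3 genes, Kank1, Dmrt2 and Gldc, every Ts1Cje library was above (6.38% of all genes). The choice of the window used these libraries, so the counts are a description. The median log2 fold change over the 56 was -0.096 with quartiles of -0.35 and 0.15, against -0.0070 over all 13821 genes tested and -0.059 over 377 other coding genes of chromosome 19. It was 0.0044 without wild-type replicate 3. Of the 56, 19 were positive (49.2% of all genes).

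The largest log2 fold changes came mostly from low levels. Kank1 had 2.33 ± 0.88 (SE), Dmrt2 1.11 ± 0.67, Fam189a2 0.83 ± 0.85, Gm10053 0.70 ± 0.35, Apba1 0.70 ± 0.39 and Gldc 0.69 ± 0.60. At the other end, Mamdc2 had -1.95 ± 0.50 (SE), from 33.1 ± 15.3 to 8.6 ± 5.45 CPM (SD, n = 3). Klf9 had -1.49 ± 0.67, which was -0.22 without wild-type replicate 2. Pgm5 followed with -1.23 ± 0.83, 4430402I18Rik with -0.91 ± 1.07, Ranbp6, a nuclear import receptor of the importin family, with -0.80 ± 0.29 and Rfx3 with -0.80 ± 0.44. Sgms1, among the better expressed genes, had -0.78 ± 0.23 (SE), with 75.6 ± 12.6 CPM in wild-type (SD, n = 3) and 44.1 ± 12.9 in Ts1Cje. Fam189a2 was 2.27 without wild-type replicate 3.

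The counts of some window genes may include reads of similar or overlapping genes, which was not tested. The transcript of Gm10053 is 99.9% identical over 946 bases to Cycs, which encodes cytochrome c, and that of Carnmt1, a methyltransferase, is 99.8% identical over 1201 bases to Gm8116, so both are uncertain. That of 4430402I18Rik is shared with Slc1a1, and Cd274 overlaps the antisense gene Gm36043. Of the 57 genes, 20 overlap a gene with any count on the opposite strand. Some of these partners had almost no reads, such as Gm50305 with 1 count and Gm50373 with 2 over the 6 libraries. The share over all genes is not given for this count, and the strand setting of the counting was not stated. The largest overlaps between expressed coding genes are of Ak3 with Cdc37l1 (5849 bp) and of Cstf2t with Prkg1 (4233 bp).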

How the data were processed

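Per the submitters' processing notes, reads were checked with FastQC 0.11.7, trimmed with Trimmomatic 0.38, aligned with HISAT2 2.1.0 (the notes name mm10) and counted with featureCounts 1.6.3. Libraries were made from 450 ng of total RNA with a SMART-seq kit, per the labels' protocols. Values are raw counts and, in a second table, TPM (scaled by gene length and library total), both as deposited by the authors. Strand and multi-mapping settings are not given in the sources used here.

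Window genes were taken by coordinate from the count table; all 81 had identical positions in GENCODE M21. Genotypes were compared on counts with edgeR 4.0.16 (limma 3.58.1, R 4.3.3): filterByExpr (minimum count 10, minimum total 15), TMM factors, quasi-likelihood test, genotype as the only term, Benjamini-Hochberg over 13821 genes, threshold 0.05. SE is the log2 fold change divided by the root of F. Library values are log2 CPM (prior count 2) minus the mean of 6 libraries, for genes with 10 counts in 3 libraries. Similar transcripts were searched with minimap2 2.31 (300 bases, 90% identity). The fit was run on simulated counts in which window genes were raised in wild-type replicate 3. They held no shift of a whole chromosome between libraries. That run does not show how the fit behaves with shifts of a whole chromosome. Alternatives included DESeq2 1.42.0 and limma-voom.

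The window, gene lists and naming rule were chosen with earlier results of these data known. Named are genes of known role, the most abundant, those of most extreme fold change or range, and those nearest the bounds and the count rule. Other names, such as other genes below the count rule and Cemip2, were added after their values were seen. Some genes that the rule selects are not reported here.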

Additional observations from a re-analysis of the deposited data

How the results depend on the processing

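The library medians of the window genes moved by less than the spread between replicates under each of 10 alternatives (9 for wild-type replicate 1), among them other scalings, TMM without chromosome 19, stricter filters, TPM and a narrower window. Wild-type replicate 3 stayed at 0.24 to 0.30, Ts1Cje replicate 2 at 0.13 to 0.16 and Ts1Cje replicate 1 at -0.30 to -0.17. Wild-type replicate 1 stayed at -0.13 to -0.038 and Ts1Cje replicate 3 at -0.097 to -0.0024, while wild-type replicate 2 ran from -0.010 to 0.049. The mean without wild-type replicate 1 as reference was added after seeing the data. Over all genes, edgeR called 1 gene, 3 with no filter and 0 with the replicate block; DESeq2 called 56, of which 1 was in the window. With 1 library left out edgeR called 1 to 6 genes, 6 without wild-type replicate 3, and 0 in the window each time, at 4 to 11 window genes with an unadjusted p under 0.05.

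Same-numbered libraries did not deviate together (correlations of -0.18, -0.045 and -0.061 across genes), so the numbers were not taken as pairs; 0 of 3 wild-type libraries correlated best with their own number. With the replicate block 0 genes passed edgeR over all genes, with 634 at an unadjusted p under 0.05, and 0 window genes, with 4. The median log2 fold change of the window was -0.094 with the block, and with 1 library left out it ran from -0.23 to 0.0044. Fold changes of 16 of 40 named genes changed sign under at least 1 alternative. Depth limits the genes just above the rule of 10 counts in 3 libraries, such as Pcsk5, Trpm3 and Pgm5.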
